A study of Mesocricetus auratus with 6 samples.

Results

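The astrocyte genes described here are markers of the star-shaped glia of the brain, read out in Syrian hamsters (*Mesocricetus auratus*) with and without the *duper* mutation. They were chosen by name from 10 widely used markers, *Gfap*, *Aqp4*, *Aldh1l1*, *Slc1a2*, *Slc1a3*, *S100b*, *Gja1*, *Sox9*, *Aldoc* and *Glul*. Of these, 9 had a row in the gene tables, out of 31593 genes in all, and *Gfap*, the intermediate filament gene of astrocytes, was not analysed here. All 9 had enough counts to be tested in every comparison.

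RNA was measured by RNA-seq in cortex, suprachiasmatic nucleus (SCN, the hypothalamic nucleus that holds the master circadian clock) and liver, all taken at circadian time 15 (CT15, early in the subjective night). *duper* hamsters carry a null allele of the clock gene *Cry1* on the Lakeview (LVG) background and lack the *tau* mutation, and wild-type hamsters were of the LVG ecotype. The *duper* group was 4 females and the wild-type group 2 males and 2 females, so that genotype and sex were partly confounded, and the ages of the animals are not given in the sources used here. Each genotype had 1 library per tissue, or 6 in all: the RNA of 4 hamsters was pooled for cortex and for SCN, and the reads of 4 individual libraries were merged for liver. Total estimated counts ranged from 6788947 in the wild-type cortex to 29936218 in the wild-type SCN among brain libraries, and from 69839214 to 85748562 in liver. As a check of the labels, *Cry1* was lower in *duper* in each tissue, at 8.56 against 33.3 TPM in cortex, 8.14 against 22.9 TPM in SCN and 5.44 against 16.8 TPM in liver. TPM values scale the reads of a gene for its length and for the total of the library, so that levels of different genes can be set side by side.

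Astrocytes take up the glutamate that neurons release, convert it to glutamine and hand it back, buffer potassium and water, and pass small molecules to one another through gap junctions. In the SCN they run their own molecular clock, and their release and uptake of transmitter take part in setting the rhythm of the neurons around them. Astrocytes of different brain regions do not express the same genes, and several of the genes used to mark them in the brain are also used by hepatocytes, which handle glutamine, folate and water with related proteins.

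The 9 genes covered a wide range of levels in the brain. In the cortex the order by TPM was *Glul*, *Aldoc*, *Slc1a2*, *Slc1a3*, *Gja1*, *S100b*, *Aqp4*, *Sox9* and *Aldh1l1* in both libraries, from 1122 and 1235 TPM for *Glul* to 17.5 and 18.7 TPM for *Aldh1l1*. The ranges of *Gja1* and *S100b* overlapped between the genotypes and those of other neighbours in this order did not. In the SCN *Glul* and *Aldoc* overlapped at the top, *Slc1a3* took the third place, and *S100b*, *Gja1* and *Slc1a2* followed with ranges that overlapped between *S100b* and *Gja1* and between *Gja1* and *Slc1a2*. *Slc1a2* therefore fell from the third place in cortex to the sixth in SCN. Summed over the 9 genes, the level was 4055 and 4450 TPM in the wild-type and *duper* cortex, 3588 and 4005 TPM in the SCN, and 758 and 651 TPM in liver. Among the genes whose levels over the 6 libraries were most like the median of the astrocyte genes were *Tcf19*, *Cdc42*, *Tspyl4* and *Stmn2*, with Pearson's r of log2(TPM + 1) of at least 0.9998. This is a description only, since cortex and SCN share hamsters and 2544 of 13408 genes had an r over 0.99.

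**Figure D1:**
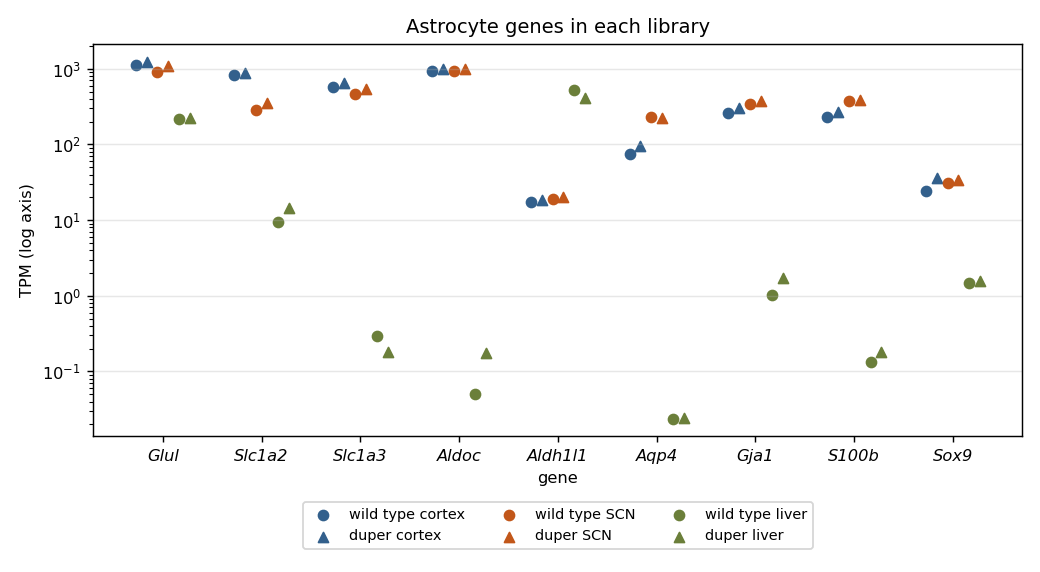
TPM of the 9 astrocyte genes on a log axis in each of the 6 libraries, with colour for tissue, circles for wild type and triangles for *duper*. Circles and triangles of a tissue lie close together in the brain, *Slc1a2* and *Aqp4* separate cortex from SCN, and *Aldh1l1* is highest in liver, where the other genes lie lower than in brain.

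The first comparison asked which astrocyte genes differ between SCN and cortex. Of the 9 genes, 2 were higher in SCN, the water channel gene *Aqp4* and the calcium-binding protein gene *S100b*, and 1 was lower, the glutamate transporter gene *Slc1a2*. The other 6 genes were not called, and 3 of these, *Gja1*, *Slc1a3* and *Glul*, passed on adjusted p but not on fold. Counts of the 4 brain libraries were tested with edgeR's quasi-likelihood F test in a model with region and genotype, in which the genotypes stood in for replicates of a region. Calls required an adjusted p (Benjamini-Hochberg) below 0.05 together with a log2 fold change of more than 0.58 in size. By that rule 9.28% of the 16903 genes tested were higher in SCN and 11.7% were lower, and 14.2% and 17.4% passed on adjusted p at any size of change. The median log2 fold change was 0.02 over all genes and 0.11 over the astrocyte genes. Libraries of mixed tissue cannot tell fewer astrocytes from less RNA per astrocyte.

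*Slc1a2* encodes the transporter GLT-1 (EAAT2), the main carrier of glutamate uptake in the forebrain. Its level was 815 TPM in wild-type cortex and 868 TPM in *duper* cortex, against 287 TPM in the wild-type SCN and 348 TPM in the *duper* SCN. Both SCN libraries lay well below both cortex libraries, from estimated counts of 13586 to 47272. The log2 fold change was −1.41 (SE 0.09, adjusted p = 3.11e-08 from edgeR), with −1.50 in wild type and −1.32 in *duper* from TPM.

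*Slc1a3* encodes GLAST (EAAT1), the other astrocyte glutamate transporter. It had 568 and 648 TPM in the wild-type and *duper* cortex and 460 and 536 TPM in the SCN. Each SCN library lay below both cortex libraries, but the gap was small, with a log2 fold change of −0.28 (SE 0.09, adjusted p = 0.0207 from edgeR), which did not reach the fold threshold. The balance of the transporter transcripts turned over between the regions: the ratio of *Slc1a2* to *Slc1a3* in TPM was 1.43 and 1.34 in the wild-type and *duper* cortex and 0.625 and 0.650 in the SCN.

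*Glul* encodes glutamine synthetase, which makes glutamine from the glutamate taken up. It had 1122 and 1235 TPM in cortex and 904 and 1079 TPM in SCN, with a log2 fold change of −0.25 (SE 0.09, adjusted p = 0.0420 from edgeR) that did not reach the fold threshold. By TPM it took between the 45th and the 97th place among all genes in the 4 brain libraries. The ratio of *Glul* to *Slc1a2* in TPM was 1.38 and 1.42 in cortex and 3.14 and 3.10 in SCN, higher in SCN in both genotypes.

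*Aqp4* encodes aquaporin-4, the water channel of astrocyte endfeet. Its level was 75.7 TPM in wild-type cortex and 96.0 TPM in *duper* cortex, and 229 and 220 TPM in the wild-type and *duper* SCN. All values of the SCN lay above those of the cortex, from estimated counts of 1107 to 16963. The log2 fold change was 1.41 (SE 0.11, adjusted p = 1.91e-07 from edgeR), with 1.59 in wild type and 1.19 in *duper* from TPM. This rise was as large as the fall of *Slc1a2*, and the ratio of *Aqp4* to *Slc1a2* in TPM went from 0.0929 and 0.111 in cortex to 0.798 and 0.633 in SCN.

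*S100b* had 233 and 266 TPM in the wild-type and *duper* cortex and 375 and 386 TPM in the SCN. The log2 fold change was 0.61 (SE 0.10, adjusted p = 0.000201 from edgeR), just past the fold threshold. Without the wild-type cortex library it was 0.52, and *S100b* was then not called. *Gja1*, which encodes the gap junction protein connexin 43, had 262 and 304 TPM in cortex and 347 and 377 TPM in SCN. The groups of *Gja1* did not overlap, and its log2 fold change of 0.36 (SE 0.09, adjusted p = 0.00739 from edgeR) did not reach the fold threshold.

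The remaining 3 genes did not pass the test. *Aldoc*, which encodes the brain aldolase of glycolysis, had 937 and 979 TPM in the wild-type and *duper* cortex and 937 and 1003 TPM in the SCN, with a log2 fold change of 0.02 (SE 0.09, adjusted p = 0.879 from edgeR). *Aldh1l1*, which encodes the folate enzyme 10-formyltetrahydrofolate dehydrogenase, had 17.5 and 18.7 TPM in cortex and 18.8 and 20.1 TPM in SCN (log2 fold change 0.11, SE 0.16, adjusted p = 0.658 from edgeR). *Sox9*, which encodes a transcription factor of astrocyte identity, had 24.6 and 35.8 TPM in cortex and 30.7 and 34.1 TPM in SCN (log2 fold change 0.13, SE 0.13, adjusted p = 0.505 from edgeR). For *Sox9* the direction also differed between the genotypes, at 0.31 in wild type and −0.07 in *duper*, a difference that was not tested.

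**Figure D2:**
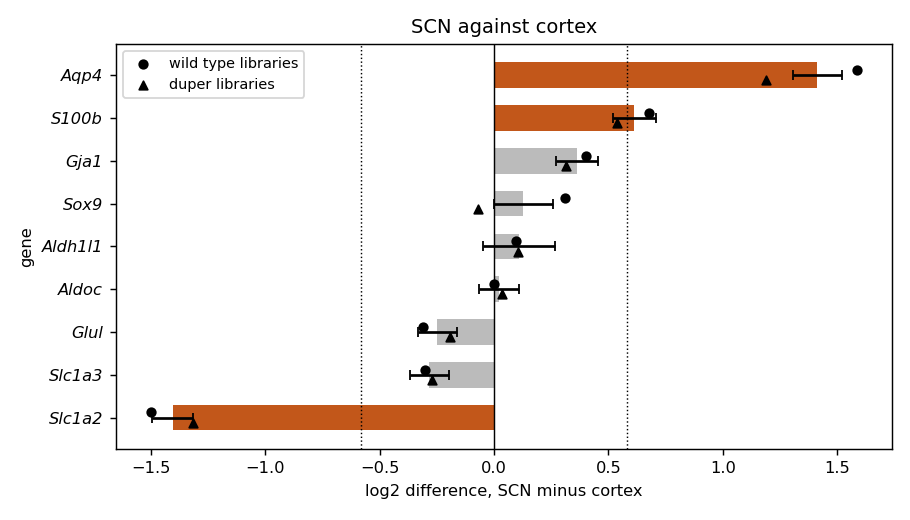
Difference between SCN and cortex for each astrocyte gene on the log2 scale. Bars show the fitted log2 fold change with its SE, in orange for the 3 called genes, circles and triangles show the TPM ratio of wild type and of *duper*, and dotted lines mark the fold threshold of 0.58. *Aqp4* and *Slc1a2* lie equally far from 0 in opposite directions, and *Aldoc* lies near 0.

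The test had 1 residual degree of freedom and borrowed its spread from all genes. With limma on log2(TPM + 1), which called 0 genes in all (4989 had an unadjusted p under 0.05), the adjusted p of *Aqp4*, *Slc1a2* and *S100b* did not pass, although the values kept their direction. Over the 14 settings tried, the main one included, the log2 fold change ranged from 1.26 to 1.58 for *Aqp4*, from −1.54 to −1.24 for *Slc1a2* and from 0.52 to 0.78 for *S100b*.

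Among the other astrocyte markers, on a list of 38 genes, more were higher in SCN than lower. Of the 36 that had a row and were tested, 10 were higher in SCN, 5 were lower and 21 were not called, with a median log2 fold change of 0.45. The GABA transporter gene *Slc6a11* (GAT-3) had 96.0 and 119 TPM in the wild-type and *duper* cortex and 496 and 532 TPM in the SCN, with a log2 fold change of 2.27 (SE 0.10). The potassium channel gene *Kcnj16* rose by 1.85 (SE 0.14). Lower in SCN were *Dio2*, the deiodinase that activates thyroid hormone (−3.15, SE 0.21), and the transcription factor gene *Nfib* (−1.49, SE 0.10).

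Markers of astrocyte region separated fully. All 5 genes of a telencephalon list were lower in SCN, with a median log2 fold change of −1.17, led by the transcription factor gene *Lhx2* (−2.21, SE 0.18). All 6 genes of a diencephalon list were higher, with a median of 1.94, among them *Slc6a11* again and *Irx2* (3.60, SE 0.85), which had only 1.16 and 1.51 TPM in SCN. Of 15 tested genes on a list of reactive astrocyte genes, 8 were higher and 0 lower, with a median of 0.68. The filament gene *Vim* led this list with the chemokine gene *Cxcl10*, and *Vim* differed between the SCN libraries, at 333 TPM for wild type but 147 TPM for *duper*, against 54.2 and 72.3 TPM in cortex. Which cells carried the RNA of the reactive astrocyte list was not tested.

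Among the partners of the astrocyte genes in the glutamate–glutamine cycle, the vesicular glutamate transporter genes of neurons differed most between the regions. Of 17 genes on that list, 2 were higher in SCN, 5 were lower and 10 were not called, with a median log2 fold change of −0.11. The vesicular glutamate transporter gene *Slc17a7* (VGLUT1) had 767 and 669 TPM in cortex and 8.61 and 3.65 TPM in SCN, and *Slc17a6* (VGLUT2) had 14.9 and 21.0 TPM in cortex and 85.5 and 105 TPM in SCN. *Glud1*, which encodes glutamate dehydrogenase, was higher in SCN by a log2 fold change of 0.72 (SE 0.09). The neuronal transporter gene *Slc1a1* was lower, with 58.3 and 56.5 TPM in cortex and 34.4 and 34.5 TPM in SCN.

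Markers of other cells moved with region as well, and their part in the astrocyte values was not tested. Of 10 neuronal markers, 1 (*Gad2*) was higher in SCN and 5 were lower, led by *Snap25* and *Syt1*, and their summed level was 6587 and 6738 TPM in cortex and 3258 and 3715 TPM in SCN. Of 7 oligodendrocyte markers 5 were higher, led by *Cldn11* and *Ugt8*, with sums of 2120 and 2791 TPM in cortex and 4170 and 3501 TPM in SCN. Of 5 markers of oligodendrocyte precursors 4 were higher, led by *C1ql1* and *Pdgfra*. Of 9 microglial and 7 endothelial markers 0 were called. Of 7 ependymal and tanycyte markers 1 was higher (*Hydin*), and the tanycyte gene *Rax* stayed under 1 TPM in every library. Of 7 choroid plexus markers 4 were lower in SCN, led by *Ttr* and *Otx2*: *Ttr* had 1837 and 2505 TPM in the cortex libraries and 165 and 24.1 TPM in the SCN libraries. As a check of the dissections, 4 of 5 tested SCN markers were higher in SCN, among them the peptide gene *Nms* with 33.5 and 13.4 TPM in SCN and 0 TPM in cortex. The fifth, *Rorb*, was lower in SCN (28.6 and 26.8 TPM in cortex, 17.7 and 17.7 TPM in SCN), and *Prok2* stayed under 1 TPM in every library. All 6 cortical markers, led by *Neurod6*, were lower in SCN.

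**Figure D3:**
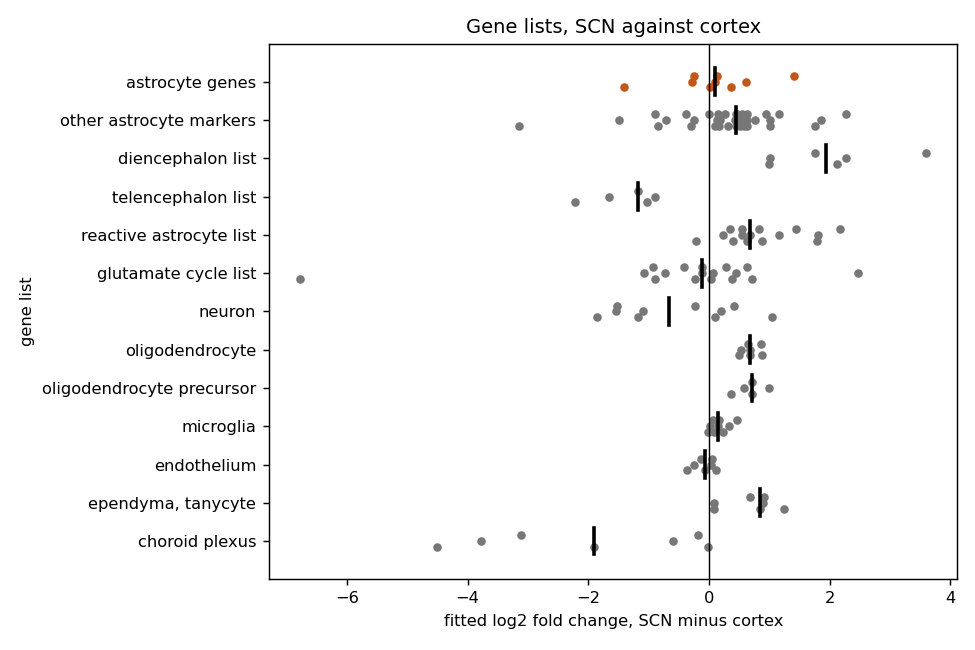
Fitted log2 fold change of SCN minus cortex for every tested gene of each list, with a point per gene, astrocyte genes in orange and a black bar at the median of the list. The 9 astrocyte genes spread on both sides of 0, the diencephalon list lies to the right and the telencephalon list to the left.

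Paralogs of the astrocyte genes gave the family context. Beside *Gja1*, the second astrocyte connexin gene *Gjb6* had 72.5 and 79.6 TPM in cortex and 114 and 102 TPM in SCN, a log2 fold change of 0.51 (SE 0.11, adjusted p = 0.00366 from edgeR) under the fold threshold. Of 10 connexin paralogs tested, 5 were higher in SCN, among them *Gjb1*, *Gjb2*, *Gjc3* and *Gjd2*. Beside *Sox9*, *Sox10*, an oligodendrocyte factor gene, was higher in SCN (24.7 and 30.1 TPM against 45.7 and 41.9 TPM), and *Sox8* was not called (32.8 and 38.7 TPM against 38.9 and 38.3 TPM). *Aldoa*, the aldolase gene used by most cells, had more transcript than *Aldoc* in all 4 brain libraries, from 1636 to 2183 TPM. Among S100 genes, *S100a1* had 130 and 144 TPM in cortex and 192 and 188 TPM in SCN and was not called, and 2 of 7 passed as higher, *S100a6* and *S100a16*, and 1 as lower, *S100a9*.

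The comparison of genotypes asked whether the loss of *Cry1* went with a change of astrocyte genes. Tested across the tissues, 0 of 9 astrocyte genes were called in *duper*, and the largest differences were those of *Slc1a2*, *Gja1* and *Sox9*. The 6 libraries were fitted with genotype and tissue as terms, which makes the 3 tissues of the same animals serve as the replicates. Over 18275 genes, 0.0% were called higher and 0.00547% lower (1 gene, *Rps27*, named after its values were seen), while 606 genes had an unadjusted p under 0.05, and DESeq2 called 26 genes higher and 15 lower. No setting called an astrocyte gene. The main fit also left *Cry1* uncalled, although its log2 ratios of TPM plus 1 within the tissues ranged from −1.84 to −1.39. A missing call from this fit therefore does not show that a gene kept its level.

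The log2 fold change of *duper* over wild type across tissues was 0.37 for *Slc1a2* (SE 0.21), 0.32 for *Gja1* (SE 0.17) and 0.30 for *Sox9* (SE 0.13). It was 0.19 for *Glul*, 0.15 for *Aldoc*, 0.12 for *S100b*, 0.10 for *Aqp4*, 0.05 for *Slc1a3* and −0.02 for *Aldh1l1*. The edgeR adjusted p was 0.998 for each of the 9. In the lists of astrocyte, glutamate cycle and other cell type genes 0 were called in either direction as well.

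Within a tissue there was no replicate and no test. The log2 ratio of TPM plus 1 is given with a 95% Clopper-Pearson interval for the ratio without the added 1, which covers counting error only. In cortex all 9 astrocyte genes had a ratio above 0, from 0.06 to 0.53 with a median of 0.19, and for 8 of them the interval lay above 0. The median over 18096 expressed genes was 0.02, and 53.3% of genes lay above 0. No astrocyte gene passed 0.58 in either direction, where 8.24% of genes were higher and 7.75% lower. The highest was *Sox9*, with 0.53 (interval 0.34 to 0.75) from 289 and 635 counts, followed by *Aqp4* with 0.34 (0.24 to 0.45). The lowest was *Aldoc* with 0.06 (0.01 to 0.12), and the interval of *Aldh1l1* included 0 (−0.20 to 0.39).

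In SCN 8 of 9 astrocyte genes lay above 0, as did 53.3% of all genes, with a median of 0.12 against 0.02 over all genes. None passed 0.58, where 6.67% of genes were higher and 7.7% lower. The glutamate genes stood highest, *Slc1a2* with 0.28 (interval 0.25 to 0.31), *Glul* with 0.26 (0.22 to 0.29) and *Slc1a3* with 0.22 (0.18 to 0.26). *Aqp4* was the gene below 0, with −0.06 (−0.11 to −0.01). On TMM-normalised CPM (counts scaled for library total and a TMM factor per library, not for gene length) the median was 0.08 against −0.02 over all genes. There *Slc1a2* went to 0.23, *Glul* to 0.21 and *Slc1a3* to 0.17, each below its interval. *Aldoc* went from 0.10 to 0.05, *Aqp4* to −0.13 and *S100b* from 0.04 to −0.0033.

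Other lists moved with genotype in the same libraries, and their part in the astrocyte values was not tested. In cortex, 28 of 36 other astrocyte genes lay above 0 (median 0.11), as did 7 of 7 oligodendrocyte (0.28), 7 of 9 microglial (0.27), 6 of 10 neuronal (0.03) and 6 of 6 ependymal genes (1.04). In SCN, 25 of 36 other astrocyte genes lay above 0 (median 0.11), with 10 of 10 neuronal (0.18), 9 of 9 microglial (0.36), 1 of 7 oligodendrocyte (−0.21) and 4 of 15 reactive astrocyte genes (−0.15). Other lists had medians below 0 in cortex. Among them, 2 of 7 endothelial (−0.06), 2 of 5 oligodendrocyte precursor (−0.05) and 3 of 7 choroid plexus genes (−0.11) lay above 0. The medians of the astrocyte genes, 0.19 in cortex and 0.12 in SCN, lay between the lowest and the highest median given here for the tissue.

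**Figure D4:**
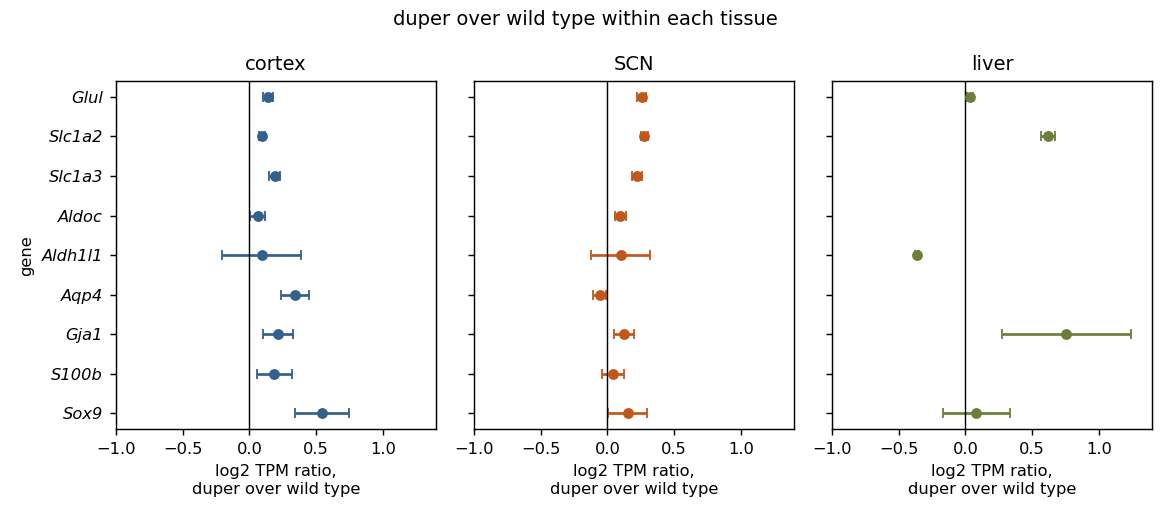
Log2 ratio of TPM, *duper* over wild type, for each astrocyte gene in cortex, SCN and liver, with 95% counting intervals (ratio without a pseudocount). In liver the 5 genes that averaged 1 TPM or more are shown. In cortex all 9 points lie right of 0, in SCN *Aqp4* lies left of it, and in liver *Aldh1l1* lies left and *Slc1a2* and *Gja1* lie right.

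Liver was compared because hepatocytes use several of the same genes. Against the mean of cortex and SCN, *Aldh1l1* was higher in liver and the other 8 astrocyte genes were lower, in a test where 33.6% of 19780 genes were called higher and 32.6% lower. *Aldh1l1* had 530.3 and 412 TPM in the wild-type and *duper* liver, against 17.5 to 20.1 TPM in the brain libraries. The log2 fold change was 6.21 (SE 0.16, adjusted p = 1.12e-07 from edgeR). It was 4.97 with library size in place of TMM and 4.57 with limma on log2(TPM + 1), scales on which the median of all genes lay at −1.22 and −1.21. *Aldh1l2*, the paralog whose protein works in mitochondria, had the opposite pattern, with 27.5 to 33.7 TPM in brain and 0.0764 and 0.143 TPM in liver.

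*Glul* was the other gene with high levels in both organs. In liver, glutamine synthetase is known to be confined to the hepatocytes next to the central vein, and *Glul* had 215 and 221 TPM in the wild-type and *duper* liver against 904 to 1235 TPM in brain. The log2 fold change was −0.73 (SE 0.16, adjusted p = 0.00474 from edgeR). Normalisation matters here: with library size in place of TMM the median of all genes moved from 0.02 to −1.22 and *Glul* to −1.98, so that relative to the median of all genes its fall was of similar size. Of 5 tested genes of the pericentral list, 4 were higher in liver than in brain, among them *Tbx3* and *Rhbg*, and *Lgr5* was not called. *Axin2*, called higher on the TMM scale, was lower in liver by TPM (8.59 and 9.38 TPM against 13.8 to 17.0 TPM in brain). *Oat*, also called higher, overlapped by TPM. It had 209 and 139 TPM in the wild-type and *duper* liver and 131 to 154 TPM in brain. All 8 hepatocyte markers were higher, as were, on the TMM scale, 4 of 5 cholangiocyte and 4 of 7 stellate cell markers.

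*Slc1a2* was low but present in liver, with 9.43 and 14.5 TPM from 4211 and 8038 counts (log2 fold change against brain −3.88, SE 0.27, adjusted p = 1.04e-05 from edgeR). *Sox9*, which also marks bile duct cells, had 1.47 and 1.56 TPM, and *Gja1* had 1.01 and 1.70 TPM. The last 4 genes were close to absent: liver counts were 49 and 38 for *Slc1a3*, 6 and 10 for *S100b*, 4 and 5 for *Aqp4*, and 3 and 13 for *Aldoc*, out of the deepest libraries of the series. Their liver levels were at most 0.292 TPM.

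Paralogs of the low astrocyte genes were present in liver. *Gjb1*, the connexin 32 gene of hepatocytes, had 327 and 307 TPM in liver and 8.90 to 29.0 TPM in brain. *Aqp9*, which encodes the hepatocyte channel for glycerol, had 183 and 135 TPM in liver and at most 2.61 TPM in brain. *Sox10* and *Slc1a6* had no counts in liver.

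Between genotypes in liver, 4 of the 5 astrocyte genes that averaged 1 TPM or more lay above 0, as did 36.2% of all genes, with a median of 0.05 against −0.10 over 14054 genes. On TMM-normalised CPM the median was 0.22 against 0.05 over all genes, of which 56.6% lay above 0. With 1 added to TPM, none of the 5 genes passed 0.58, where 4.75% of genes were higher and 10.5% lower. *Slc1a2* was nearest with 0.57 (interval 0.56 to 0.67), and it passed with 0.1 added (0.61), with nothing added (0.62) and on TMM-normalised CPM (0.79). *Gja1* followed with 0.43 (0.27 to 1.24) from 55 and 115 counts, and it too passed with 0.1 added (0.70), with nothing added (0.75) and on TMM-normalised CPM (0.60). The share of all genes past 0.58 was not counted on these other scales. *Aldh1l1* was lower with −0.36 (−0.38 to −0.35), and −0.19 on TMM-normalised CPM. *Glul* stood at 0.03 and *Sox9* at 0.05, and on TMM-normalised CPM at 0.21 and 0.22.

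Transcripts of a gene were then set against each other, since Kallisto estimates each annotated transcript. *Gja1*, *Slc1a3*, *Sox9* and *Aldh1l1* had 1 transcript, and in *Aldoc*, *S100b* and *Glul* 1 transcript held at least 95.2% of the TPM in every brain library. *Slc1a2* had a transcript of 10608 bases and one of 10683 bases. The longer one held 5.56% and 5.24% of the gene's TPM in the wild-type and *duper* cortex and 4.60% and 4.06% in SCN, but 26.7% and 27.5% in liver. The 95% Clopper-Pearson intervals of its share of the counts ran from 25.5% to 28.2% and from 26.7% to 28.7% in the liver libraries and did not exceed 5.88% in brain. The estimated transcript shares in liver thus differed from those in brain, as did the level, in both genotypes. The intervals treat the estimated counts as counted reads and leave out the uncertainty of assigning reads to a transcript.

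*Aqp4* was divided among 3 transcripts of 4137, 5158 and 5202 bases. The share of the 4137-base transcript varied least over the 4 brain libraries, at 32.8% and 34.9% of TPM in the wild-type and *duper* cortex and 27.3% and 34.0% in SCN. The longer ones traded places: the 5158-base transcript held 55.2% and 24.9% in cortex and 44.7% and 46.5% in SCN, and the 5202-base transcript held 12.0% and 40.2% in cortex and 28.0% and 19.5% in SCN. Only in the *duper* cortex did the 5202-base transcript hold more than the 5158-base one, and the wild-type cortex had the widest gap the other way. There was 1 library per group and no test. These shares also leave out the uncertainty of assigning reads to a transcript.

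**Figure D5:**
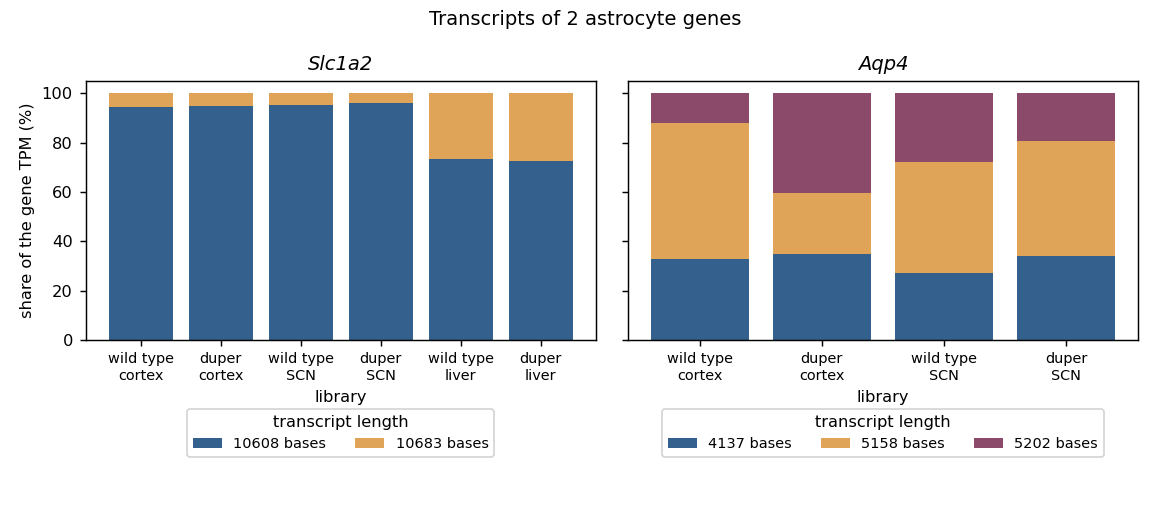
Share of the TPM of *Slc1a2* (left, 6 libraries) and *Aqp4* (right, the 4 brain libraries) held by each annotated transcript, named by its length in bases. The 10683-base transcript of *Slc1a2* takes 26.7% and 27.5% in liver and at most 5.56% in brain. In *Aqp4* the 5202-base transcript exceeds the 5158-base one in the *duper* cortex only.

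The estimated counts also carry a limit. Kallisto divides a read that fits several transcripts among them, and the gene totals of 6 astrocyte genes were whole numbers in all 6 libraries (within 1e-06). Those of *Slc1a2* and *Slc1a3* were whole in 0 of 6 libraries and that of *Glul* in 1 of 6, so a part of their reads was shared with transcripts of other genes and their values are uncertain by that part.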

How the data were processed

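RNA-seq was analysed for cortex, SCN and liver of *duper* and wild-type hamsters, 6 libraries grouped by genotype and tissue from the labels. The authors prepared stranded mRNA libraries, quantified them with Kallisto (version not given in the sources used here) against a hamster reference they name MesAur2.0, and summed transcripts to genes through tximport. Deposited by the authors were raw estimated counts and TPM for each gene, and a table of 67818 transcripts per library with estimated counts, TPM and lengths. Transcripts were tied to genes by the RefSeq annotation of BCM_Maur_2.0, used for names only, and 99.98% of gene values equalled the transcript sums (within 0.01 counts).

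Estimated counts were rounded and entered edgeR 4.0.16 under R 4.3.3 (quasi-likelihood F test, TMM, filterByExpr, Benjamini-Hochberg adjustment over all genes tested). An SE was taken as the size of the log2 fold change over the root of its F statistic. SCN was compared with cortex in 4 libraries with genotype as a covariate, *duper* with wild type in 6 libraries with tissue as a covariate, and liver with the mean of cortex and SCN in 6 libraries. Calls needed an adjusted p below 0.05 with a log2 fold change beyond 0.58 in size. The study's own tool, DESeq2 (1.42.0 here), was an alternative. Within a tissue, log2 ratios of TPM with a pseudocount of 1 were described without a test for genes averaging 1 TPM or more. Intervals of 95% (Clopper-Pearson, scipy 1.17.1) cover counting error only. These steps ran in Python 3.11.15 with pandas 2.3.3, numpy 2.4.6 and matplotlib 3.10.9.

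Total estimated counts per library ran from 6788947 to 85748562, so low genes of the wild-type cortex are the least precise. The spread between fitted libraries had a common dispersion of 0.0121 for SCN against cortex, 0.0340 for genotype and 0.0351 for liver. With 200 genes changed in simulated counts, the SCN against cortex step found 97 of 100 genes changed 4-fold and 81 of 100 changed 2-fold among 16903 genes, with 6 false calls. The genotype step found 92 and 60 with 3 false calls among 18275 genes, and the liver step 97 and 64 with 8 among 19780. These simulated counts used the common dispersion for every gene and an equal change in all changed libraries. They do not show how often a gene with a larger spread would be found. In the real libraries the genotype step did not call *Cry1*.

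The astrocyte genes and all gene lists were chosen with earlier results of these data known. Named are all astrocyte genes with a row, from each list the 2 called genes with the largest absolute log2 fold change in each direction for SCN against cortex, paralogs with at least 10 TPM in any library, and the 5 genes most like the median astrocyte gene. Some genes that meet this rule are not reported here. Others (*Slc1a1*, *Axin2*, *Oat*, *Rhbg*, *Rax*, *Rps27*) were named after their values were seen. *Slc6a11* and 3 other genes stood on 2 lists. Alternatives were DESeq2, library size scaling, no filter beyond 1 count, the likelihood ratio test, length offsets, limma 3.58.1 on log2(TPM + 1) or log2(TPM + 0.1), other sets of libraries, no covariate, and leaving out each brain library or tissue. Marker genes without a row, such as *Gfap*, *Mbp*, *Avp* and *Vip*, were not analysed here, and no sequences or coordinates were used.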

Additional observations from a re-analysis of the deposited data

Results flagged for a closer look

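The *duper* to wild-type difference went in opposite directions between tissues for *Aqp4* and *Slc1a3*, a difference that was not tested since each tissue has 1 library per genotype. *Aqp4* had a log2 ratio of 0.34 in cortex and −0.0573 in SCN. *Slc1a3* had 0.19 in cortex and 0.22 in SCN against −0.13 in liver, where it rested on 49 and 38 counts. *Aldh1l1* also had a lower value in liver, −0.36 (95% counting interval −0.38 to −0.35) from 63900 and 61781 counts, against 0.09 in cortex and 0.10 in SCN, where the intervals included 0. *Aqp4* had 1107 and 2112 counts in the wild-type and *duper* cortex and 16963 and 3804 in the SCN.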

How the results depend on the processing

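The astrocyte genes kept 0 calls between genotypes, and 1 higher and 8 lower in liver, under every alternative run. For SCN against cortex, 2 astrocyte genes were called higher and 1 lower under each alternative except limma with either pseudocount (0 and 0, with 0 genes called in all and 4989 and 4376 genes at an unadjusted p under 0.05), and leaving out single libraries gave 1 to 2 higher, *S100b* being lost without the wild-type cortex. The number of genes called higher in SCN was 1569, against 885 with DESeq2, 2431 with library size scaling, 745 with all 6 libraries and 0 with limma at either pseudocount. For genes lower it was 1973, and 0 with limma. With library size scaling the median of all genes moved from 0.02 to 0.19 and the calls from 1569 higher and 1973 lower to 2431 and 1439. The numbers called per gene list stayed within 1.5 times in 386 cases of a list and an alternative and did not in 82.

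Values near 0 changed sign. For SCN against cortex these were *Sox9* (−0.14) and *Aldoc* (−0.0038) without the wild-type cortex, *Aldoc* (−0.0212) without the *duper* SCN, *Tbx3* (0.0638 with library size scaling, 0.0351 without the wild-type SCN) and *Lgr5* (0.0869 with library size scaling, 0.0117 with all 6 libraries, 0.30 without the *duper* cortex). Between genotypes these were *Aqp4* (from −0.13 without cortex to 0.31 without SCN), *Aldh1l1* (from −0.11 without cortex to 0.0750 without liver) and *Slc1a3* (−0.0238 with limma on log2(TPM + 0.1), −0.10 without cortex, −0.07 without SCN, 0.18 without liver).

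Between genotypes the number of genes called higher was 0, against 26 with DESeq2, 19 without the filter, 54 with the likelihood ratio test and 0 to 11 with a tissue left out (11 without SCN, 10 without liver). The number called lower was 1, against 15 with DESeq2, 29 without the filter, 37 with the likelihood ratio test, 0 with limma at either pseudocount or without the tissue term, and 2 to 23 with a tissue left out (2 without cortex, 23 without SCN, 12 without liver). For liver 6644 genes were called higher and 6445 lower, against 3108 and 11470 with library size scaling, 2389 and 11992 with limma on log2(TPM + 1), and 2339 and 11942 on log2(TPM + 0.1), where the median of all genes lay at −1.22, −1.21 and −1.49. The causes of these changes were not tested. The labels give no replicate numbers to block on, and the genotype and tissue terms of the tests take the place of a pairing of the same hamsters across tissues. With 1 library per group, values within a tissue have no replicate check. Low counts limit the astrocyte genes in liver with under 50 counts (*Slc1a3*, *S100b*, *Aqp4*, *Aldoc*), although the liver libraries were the deepest.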
